A study of Canis lupus familiaris with 29 samples.

Results

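RNA sequencing of 12 canine tumors labelled PPGL group 2 was compared with that of 10 normal adrenal medullas (NAMs). PPGL stands for pheochromocytoma and paraganglioma. The members were chosen by their group label in the deposited count table, which gave 22 of the 29 samples of the series. The other 7 are tumors of PPGL group 1, which were left out of the comparison. They enter 1 alternative fit and appear otherwise as values set beside those of group 2.

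The study asked how gene expression in tumors of the dog's chromaffin cells departs from that of the normal medulla. The NAMs are frozen medulla tissue of healthy research dogs. Tumors came from client-owned dogs of several clinics after surgery or euthanasia, and were snap-frozen or held in a stabilizing solution before freezing. Origin, handling and tissue run together in this design and cannot be told apart. The authors drew the tumor groups from a principal component plot of these same expression values, after taking out tumors that lay apart, and all but 1 of the tumors kept were pheochromocytomas. The labels used here do not say which group holds the paraganglioma. Genotype, treatment, age, breed and sex were not analysed here.

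Chromaffin cells are neural crest derivatives that make catecholamines, store them in dense-core vesicles together with granins and peptides, and release them when acetylcholine from the splanchnic nerve opens nicotinic receptors. Tyrosine is converted by TH, DDC and DBH to noradrenaline, and PNMT turns this into adrenaline. PNMT is known to depend on glucocorticoids that reach the medulla from the surrounding cortex. Chromaffin tumors keep much of this program and arise in people partly through inherited changes in genes of the citric acid cycle, of oxygen sensing and of kinase signalling.

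Total counts per sample ranged from 19258054 to 35918182 in NAMs (median 25494016) and from 18208718 to 24569667 in group 2 (median 22051743). The tumors were sequenced to a lower mean depth than the NAMs (permutation test on both sides with 100000 resamples, p = 0.00408). At these depths 3 counts, used here as the floor, correspond to 0.0835 to 0.156 CPM (counts scaled by library size) in NAMs and 0.122 to 0.165 CPM in group 2. Levels below are CPM scaled by the trimmed mean of M-values (TMM). Each log2 fold change (FC) of group 2 over NAM, its standard error (SE) and its adjusted p come from the quasi-likelihood test of edgeR with Benjamini-Hochberg adjustment over 14428 genes, and a gene was called at an adjusted p below 0.05. For called genes, the number after the adjusted p is the number of tumors, of 12, on the called side of the NAM median. How the counting treated strand and reads with more than 1 match is not stated, which leaves antisense neighbors and near-identical genes, among them cytochromes P450, uncertain. Positions are those of the CanFam3.1 genome.

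Markers of chromaffin cells were counted in every tumor, and the enzyme that forms adrenaline was lower. TH, the enzyme that starts catecholamine synthesis, ranged from 1042 to 5862 CPM (median 1400.1) in NAMs and from 31.9 to 6168 CPM (median 2189) in group 2 (log2 FC 0.16, SE 0.47, adjusted p = 0.809). DBH, which turns dopamine into noradrenaline, ranged from 4887 to 16959 CPM (median 6561) in NAMs and from 3157 to 22149 CPM (median 12061) in group 2 (log2 FC 0.43, SE 0.33, adjusted p = 0.311). For both enzymes the groups overlapped, and tumor 7, with 31.9 CPM of TH, lay far under the other tumors. PNMT, on chromosome 9 from 22808601 to 22810551, ranged from 1566 to 4681 CPM (median 2301) in NAMs and from 61.4 to 882 CPM (median 167) in group 2 (log2 FC -2.98, SE 0.44, adjusted p = 2.22e-05, 12 of 12). All 12 tumors lay below every NAM. The granin CHGB ranged from 5639.5 to 60579 CPM (median 21185) in NAMs and from 9236 to 79606 CPM (median 24798) in group 2 (log2 FC 0.35, SE 0.42, adjusted p = 0.532), so that the groups shared most of their range. PHOX2A, a transcription factor that sets the noradrenergic fate, was above every NAM in 12 of 12 tumors (log2 FC 2.19, SE 0.24, adjusted p = 1.14e-06, 12 of 12). The vesicle protein SYP rose (log2 FC 0.76, SE 0.22, adjusted p = 0.0099, 11 of 12), and the vesicular monoamine transporter SLC18A1 fell (log2 FC -1.16, SE 0.43, adjusted p = 0.0348, 11 of 12), the latter with 4.16 CPM in tumor 11 and at least 175 CPM in the other 11 tumors. The call of SLC18A1 was lost when any 1 of NAM replicates 3 and 10 or of tumors 5 and 7 was left out (adjusted p from 0.0501 to 0.0928) and with group 1 in the fit (adjusted p = 0.0693). With the cortical score, described next, as a covariate, PNMT (log2 FC -2.37, adjusted p = 0.0158) and PHOX2A kept their calls and SLC18A1 did not (log2 FC -0.86, adjusted p = 0.435). INSM1 and CHGA, markers of the same cells, were not found by name in the table.

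Markers of the adrenal cortex were lower in group 2, and their level ran over a wide range of tumors. Of 14 markers tested, 13 were lower (92.9%, beside 18% of all genes) and 0 higher, with a median log2 FC of -2.54. Summed over the markers, NAMs held 15932 to 72697 CPM (median 39741) and group 2 held 295 to 37314 CPM (median 3981). The tumor with the largest sum was tumor 10, which lay within the range of the NAMs, and the smallest was tumor 7. Scaled by transcript length as well (TPM), the most abundant marker by mean was STAR in NAMs, at 10552, and CYP17A1 in group 2, at 1852. STAR averaged 1606 in group 2. Tumor 10 held 40.3% of the summed level of CYP17A1 in group 2 and 34.3% of that of STAR, so the order of these means leans on it. None of the markers named here was at 0 in any tumor. CYP17A1, an enzyme of cortisol and androgen synthesis, ranged from 3024 to 20078 CPM (median 12141) in NAMs and from 10.2 to 11632 CPM (median 1142) in group 2 (log2 FC -2.30, SE 0.66, adjusted p = 0.00782, 12 of 12), and 9 tumors lay below every NAM. STAR, which carries cholesterol into mitochondria, ranged from 2746 to 12732 CPM (median 6161) in NAMs and from 82 to 3847 CPM (median 666) in group 2 (log2 FC -2.80, SE 0.49, adjusted p = 0.000143, 12 of 12), with 11 tumors below every NAM. NR5A1, the transcription factor that marks steroid-producing cells, was below every NAM in 10 tumors (log2 FC -2.63, SE 0.58, adjusted p = 0.00113, 12 of 12), and the corticotropin receptor MC2R in 11 (log2 FC -2.52, SE 0.56, adjusted p = 0.00116, 12 of 12). NR0B1, another regulator of the cortex, fell (log2 FC -1.62, SE 0.58, adjusted p = 0.0303, 10 of 12), and was not called when NAM replicate 1 or 9 was left out (adjusted p = 0.0538 and 0.0613). HSD3B2, a further enzyme of steroid synthesis, did not pass the threshold (log2 FC -1.57, SE 0.69, adjusted p = 0.0729), but passed by the DESeq2 Wald test (log2 FC -1.61, adjusted p = 0.0334), by the Mann-Whitney U-test (adjusted p = 0.0375) and without tumor 10 (log2 FC -2.24, adjusted p = 0.00798). Without that tumor the log2 FC was -2.91 for CYP17A1, -3.45 for CYP11A1, -3.28 for CYP21A2 and -2.92 for CYP11B2, against -2.30, -2.77, -2.59 and -2.25 with it. In bulk tissue, fewer cells of a type and less RNA per cell cannot be told apart.

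A cortical score, the mean log2 CPM of 10 cortex markers, averaged 9.62 in the 10 NAMs with an SD of 0.69, and 6.35 in the 12 tumors with an SD of 1.95. For each gene list below, the number of members called is also given with this score as a covariate, and for named genes the value where that fit ended the call or moved it over 1.5 times. That fit called 5.33% of all genes higher and 3.64% lower, the shares to hold beside its list counts. A call could end in it while the log2 FC stayed or grew. The score separates the tissues in part, so that such a fit removes differences that follow it along with any that the cortex markers would carry. What share of any result moves with cortical content was not tested.

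**Figure D1:**
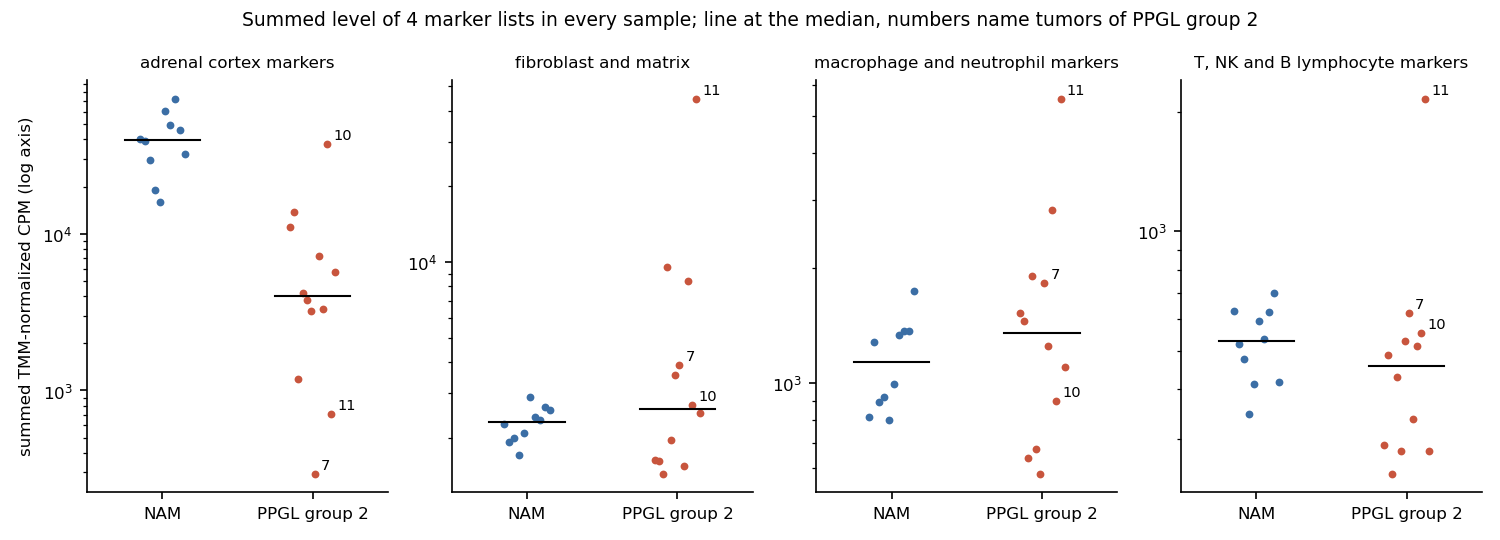
Summed TMM-normalized CPM (log axis) of 4 marker lists in each NAM (blue, n = 10) and each tumor of PPGL group 2 (orange, n = 12), with the line at the group median and numbers naming tumors 7, 10 and 11. Cortex markers fell from a median of 39741 to 3981 CPM, and tumor 11 held the highest sum of the other 3 lists.

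Across the 14428 genes tested, 3302 (22.9%) were higher and 2593 (18%) were lower in group 2. With a log2 FC over 3 or under -3 as well, 226 (1.57%) were higher and 74 (0.513%) lower. The lowest tumor lay above the highest NAM for 151 genes (1.05%), and the highest tumor below the lowest NAM for 207 (1.43%). The median log2 FC over all genes was 0.09. With the cortical score as a covariate 769 genes (5.33%) were higher and 525 (3.64%) lower, 138 and 62 of them past a log2 FC of 3 or -3. Without the low-count filter, 834 were higher and 217 lower past the same limits, and with the 7 tumors of group 1 in the fit 344 were higher. The shares of all genes higher and lower were 24.1% and 20.4% by the DESeq2 Wald test, 16.6% and 12.5% without the filter, 18.4% and 14.5% with group 1, and 18.7% and 19.7% by the Mann-Whitney U-test. A filter of at least 1 CPM in at least 10 samples left 149 higher. Leaving out tumor 10 raised the genes with a log2 FC under -3 from 74 to 120.

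**Figure D2:**
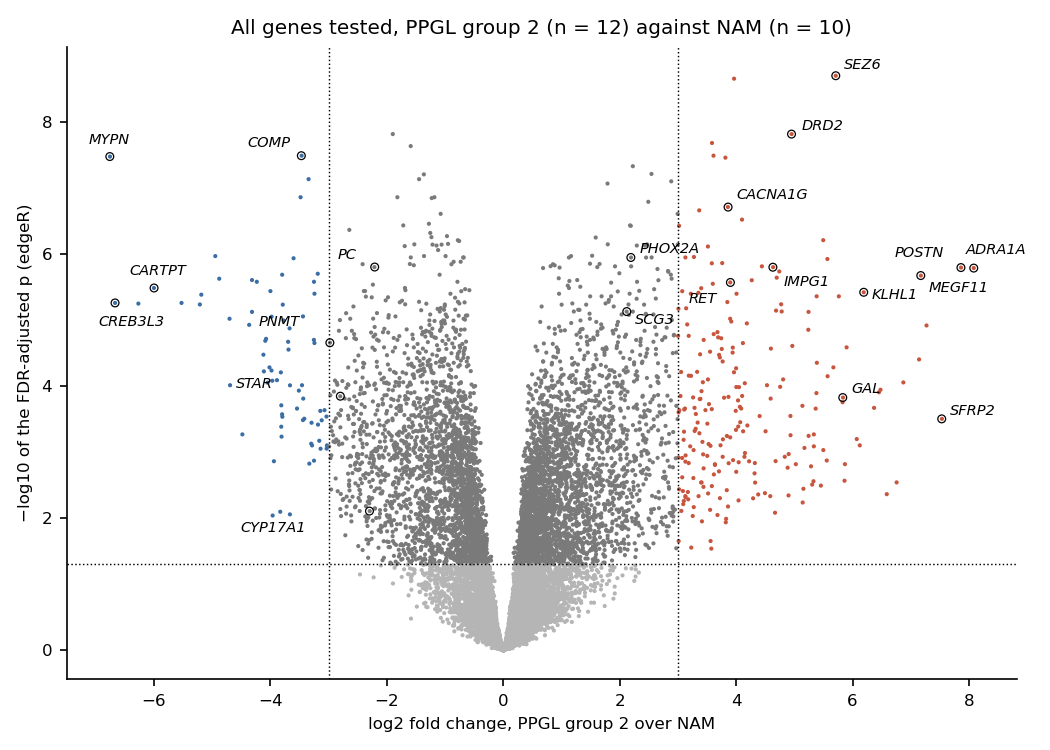
Each point is 1 of 14428 genes, with the log2 FC of PPGL group 2 (n = 12) over NAM (n = 10) on the x axis and -log10 of the FDR-adjusted p on the y axis. Dotted lines mark an adjusted p of 0.05 and a log2 FC of 3 and -3, orange and blue points are the 226 and 74 genes past both, and some of the genes named in the text are circled.

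The genes with the largest log2 FC, among those without overlap between the groups and with a mean of at least 5 CPM in the tumors, differed in their NAM level, from a median of 0.111 CPM for ASIC2 to 50.7 CPM for IMPG1. POSTN, on chromosome 25 from 3167359 to 3208411, codes for the matrix protein periostin and ranged from 0 to 0.413 CPM (median 0.194) in NAMs and from 2.34 to 205 CPM (median 18.6) in group 2 (log2 FC 7.86, SE 0.91, adjusted p = 1.62e-06, 12 of 12). MEGF11, a transmembrane protein with EGF-like repeats, ranged from 0 to 0.321 CPM (median 0.124) in NAMs and from 1.61 to 90.1 CPM (median 6.58) in group 2 (log2 FC 7.17, SE 0.85, adjusted p = 2.14e-06, 12 of 12). KLHL1, an actin-binding protein of neurons on chromosome 22 from 24191778 to 24555120, ranged from 0.1 to 1.92 CPM (median 0.675) in NAMs and from 2.31 to 188 CPM (median 48.9) in group 2 (log2 FC 6.19, SE 0.77, adjusted p = 3.83e-06, 12 of 12). All 12 tumors lay above every NAM for these 3 genes. POSTN and MEGF11 were at most at 11 and 8 counts in any NAM, and a prior count of 2 moved the log2 FC of MEGF11 to 6.57. SEZ6, a membrane protein of neurons on chromosome 9 from 43121017 to 43165762, ranged from 2.01 to 15.2 CPM (median 5.67) in NAMs and from 139.9 to 596 CPM (median 306) in group 2 (log2 FC 5.71, SE 0.37, adjusted p = 2.03e-09, 12 of 12), and the lowest tumor was over 9 times the highest NAM. IMPG1, a proteoglycan known from the matrix between photoreceptors, ranged from 6.04 to 112 CPM (median 50.7) in NAMs and from 140.1 to 3301 CPM (median 1575) in group 2 (log2 FC 4.63, SE 0.53, adjusted p = 1.6e-06, 12 of 12). Scaled by length (TPM), its mean in the tumors was 1005, against 1639 for TH. DRD2, the dopamine D2 receptor, ranged from 1.31 to 10.4 CPM (median 4.51) in NAMs and from 66.9 to 295 CPM (median 151) in group 2 (log2 FC 4.95, SE 0.38, adjusted p = 1.55e-08, 12 of 12). S100A5, a calcium-binding protein, ranged from 4.52 to 19.7 CPM (median 12.4) in NAMs and from 31 to 975 CPM (median 255) in group 2 (log2 FC 4.74, SE 0.55, adjusted p = 1.85e-06, 12 of 12), and CCN3, a protein of the matrix, from 1.37 to 4.9 CPM (median 2.64) in NAMs and from 5.13 to 302 CPM (median 43.4) in group 2 (log2 FC 4.96, SE 0.73, adjusted p = 2.48e-05, 12 of 12). The remaining genes of this kind were the acid-sensing channel ASIC2 (log2 FC 5.38, adjusted p = 4.41e-06), BMPER, a regulator of bone morphogenetic proteins (log2 FC 4.44, adjusted p = 1.55e-06), and SYTL1, which links vesicles to Rab27 (log2 FC 4.18, adjusted p = 1.13e-05). In all 3 each tumor lay above every NAM. Tumor 7 held 44.5% of the summed level of SYTL1 in group 2, and without it the log2 FC was 3.46, while the prior count of 2 gave 4.78 for ASIC2. In the covariate fit the 11 rising genes of this paragraph were called (adjusted p at most 0.0152), with a log2 FC of 6.21 for POSTN, 3.32 for S100A5, 4.32 for CCN3, 3.04 for ASIC2 and 2.89 for SYTL1.

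Genes with the largest falls in the tumors included the peptide precursor CARTPT, the cadherin CDH4, MYPN of muscle and CREB3L3, which is known from liver. CARTPT, on chromosome 2 from 54865298 to 54867158, codes for a peptide of feeding and stress circuits and ranged from 2044 to 4825 CPM (median 2941) in NAMs and from 1.25 to 212 CPM (median 29.7) in group 2 (log2 FC -6.002, SE 0.73, adjusted p = 3.3e-06, 12 of 12). The median tumor held about 1 CPM for every 99 in the median NAM. MYPN, a protein of the muscle sarcomere, ranged from 2.59 to 8.2 CPM (median 5.15) in NAMs and from 0 to 0.21 CPM (median 0) in group 2, was at 0 in 7 tumors and had a log2 FC of -6.76 (SE 0.56, adjusted p = 3.39e-08), which was -7.42 without tumor 1 and -5.36 with a prior count of 2. CREB3L3, a transcription factor anchored in the endoplasmic reticulum and known from liver, ranged from 1.05 to 160.2 CPM (median 22.1) in NAMs and from 0 to 0.918 CPM (median 0.255) in group 2 (log2 FC -6.67, SE 0.86, adjusted p = 5.55e-06, 12 of 12), with a log2 FC of -5.93 when NAM replicate 8 was left out. Not 1 tumor reached the lowest NAM for these 3 genes. APOB, the main protein of low-density lipoprotein, ranged from 38 to 508 CPM (median 206) in NAMs and from 0.428 to 28.7 CPM (median 12.1) in group 2 (log2 FC -4.23, SE 0.51, adjusted p = 2.66e-06, 12 of 12). ERBB4, a receptor of neuregulins, ranged from 3.97 to 24.7 CPM (median 12.1) in NAMs and from 0 to 2.38 CPM (median 0.475) in group 2 (log2 FC -4.37, SE 0.60, adjusted p = 1.19e-05, 12 of 12). SLC24A2, a sodium, potassium and calcium exchanger, fell by 5.53 on the log2 scale (adjusted p = 5.55e-06) and was at 0 in 5 tumors. The cadherin CDH4 (log2 FC -5.21), the kinase-like vesicle protein CAMKV (-5.19), the secreted protein EGFL6 (-4.70), the heparan sulfate enzyme NDST4 (-4.69), the complement regulator C4BPA (-4.32) and the olfactomedin OLFM3 (-4.08) were below every NAM in all 12 tumors, with adjusted p-values from 2.5e-06 to 9.75e-05. Tumor 9 held the highest level of EGFL6 and NDST4 and tumor 11 that of CAMKV, and without them these log2 FCs were -5.49, -5.59 and -5.78. Without NAM replicate 8 that of C4BPA was -3.64. In the covariate fit all 12 genes of this paragraph were called (adjusted p at most 0.0382), and the log2 FC was -5.92 for CREB3L3, -5.35 for CARTPT, -4.82 for SLC24A2, -3.52 for CDH4, -6.43 for CAMKV, -3.12 for C4BPA and -2.04 for APOB. The tumors highest and lowest in APOB were 10 and 7, as for the summed cortex markers.

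Among genes called by edgeR, 2 of the 6 with the largest rise in mean CPM were granins, and 4 of the 6 with the largest fall were cortex markers. SCG3, a granin that brings cargo to secretory granules, ranged from 595 to 2608 CPM (median 992) in NAMs and from 2629 to 8896 CPM (median 5521) in group 2 (log2 FC 2.12, SE 0.28, adjusted p = 7.5e-06, 12 of 12) and lay above every NAM in 12 tumors. SCG2, another granin, ranged from 847 to 3942 CPM (median 1569) in NAMs and from 764 to 6445 CPM (median 4521) in group 2 (log2 FC 1.00, SE 0.34, adjusted p = 0.0232, 10 of 12), and 7 tumors lay above every NAM. THY1, a surface glycoprotein of neurons, ranged from 226 to 762 CPM (median 394) in NAMs and from 194 to 5213 CPM (median 1882) in group 2 (log2 FC 2.24, SE 0.41, adjusted p = 0.000213, 10 of 12), with 10 tumors above and tumor 9 below every NAM. PSAP, the precursor of lysosomal saposins, was above every NAM in 11 tumors (log2 FC 0.71, SE 0.15, adjusted p = 0.000884, 11 of 12). GNAS, the stimulatory G protein, overlapped between the groups (log2 FC 0.52, SE 0.19, adjusted p = 0.0306, 11 of 12). Its call was not kept in 9 of 22 fits that each left out 1 library, namely NAM replicates 1, 6, 7, 8 and 9 and tumors 4, 6, 8 and 12 (adjusted p from 0.0503 to 0.0841), nor without the low-count filter (adjusted p = 0.0608). That of SCG2 was not kept without NAM replicate 7 (adjusted p = 0.0532) or by the Mann-Whitney U-test (adjusted p = 0.0691). With group 1 in the fit neither SCG2 nor GNAS passed (adjusted p = 0.152 and 0.0869), while the covariate fit did not call SCG2, GNAS or PSAP (log2 FC 0.96, 0.34 and 0.44, adjusted p from 0.213 to 0.452). On the falling side, CYP17A1, STAR, CYP11A1 and CYP21A2 of the cortex were joined by ENPP2, or autotaxin, which makes lysophosphatidic acid, and PEG10, an imprinted gene. ENPP2 ranged from 577 to 7801 CPM (median 3781) in NAMs and from 46.3 to 1708 CPM (median 265) in group 2 (log2 FC -3.14, SE 0.58, adjusted p = 0.000239, 12 of 12), with 9 tumors below every NAM. PEG10 ranged from 2361 to 16741 CPM (median 4628) in NAMs and from 749 to 4888 CPM (median 2039) in group 2 (log2 FC -1.27, SE 0.34, adjusted p = 0.00493, 11 of 12), with 8 below. Neither was called with the cortical score, where the log2 FC of ENPP2 shrank to -1.21 (adjusted p = 0.139) and that of PEG10 grew to -1.48 (adjusted p = 0.0838).

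**Figure D3:**
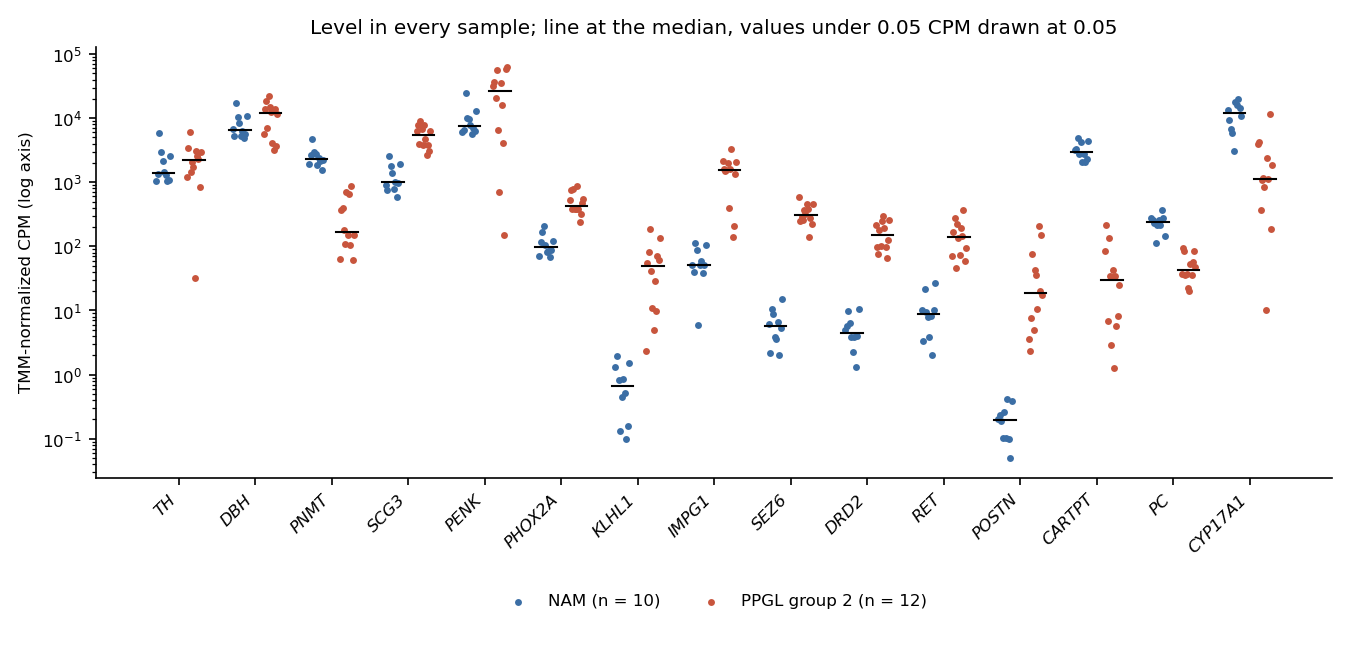
TMM-normalized CPM (log axis) of 15 genes in each NAM (blue, n = 10) and each tumor of PPGL group 2 (orange, n = 12), with the line at the group median and values under 0.05 CPM drawn at 0.05. PNMT, CARTPT and PC sit below every NAM in all 12 tumors, and PHOX2A, KLHL1, IMPG1, SEZ6, DRD2, RET and POSTN above.

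Some of these changes went further in group 2 than in group 1, whose values are set beside them with no test because the tumor groups were drawn from the same data. Values of group 1 come from scaling all 29 samples together. KLHL1 had a median of 48.9 CPM in group 2 and ranged from 0 to 121 CPM (median 0.262) in the 7 tumors of group 1. IMPG1 ranged from 0.1 to 1293 CPM (median 467) in group 1. DACH2, a nuclear cofactor, rose in all 12 tumors (log2 FC 3.58, SE 0.28, adjusted p = 2.11e-08, 12 of 12), with medians of 28.4 CPM in group 2, 2.18 CPM in NAMs and 2.18 CPM in group 1. SRL, a calcium-binding protein of the endoplasmic reticulum, rose likewise (log2 FC 3.02, SE 0.30, adjusted p = 3.78e-07, 12 of 12), with medians of 58.9, 6.95 and 5.54 CPM in the same order. For the last 2 genes the median of group 1 was at that of NAM or under it. In the other direction, COMP, a matrix protein of cartilage, ranged from 124 to 419 CPM (median 241) in NAMs and from 3.63 to 36 CPM (median 21) in group 2 (log2 FC -3.47, SE 0.29, adjusted p = 3.29e-08, 12 of 12), and from 28.7 to 987 CPM (median 65.7) in group 1. AMIGO2, an adhesion protein, fell (log2 FC -3.66, SE 0.62, adjusted p = 9.79e-05, 12 of 12), with a log2 FC of -4.55 without tumor 9, and had a median of 5.38 CPM in group 2 against 60.1 CPM in group 1. SHC3, an adaptor of receptor kinases in neurons, fell (log2 FC -3.79, SE 0.49, adjusted p = 5.9e-06, 12 of 12), with medians of 1.03 CPM in group 2, 14.2 CPM in NAMs and 2.45 CPM in group 1. The potassium channel KCNH5 fell too (log2 FC -3.81, SE 0.69, adjusted p = 0.000197, 12 of 12), with medians of 0.278, 10.3 and 1.80 CPM in the same order, and was not called with the cortical score (log2 FC -3.37, adjusted p = 0.0515). CAMKV ranged from 0 to 114 CPM (median 0.178) in group 1, where 1 tumor stood apart at the top, against a median of 0.0684 CPM in group 2 and 7.46 CPM in NAMs. The group 2 median of CAMKV lay under the floor of 3 counts (0.122 to 0.165 CPM). That of group 1 lay just above its floor (0.094 to 0.162 CPM), so the 2 medians are not ranked.

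Of 11 genes of catecholamine synthesis, 2 were higher and 3 lower (18.2% and 27.3%, beside 22.9% and 18% of all genes), with a median log2 FC of 0.16, against 1 and 1 with the cortical score. DDC, the decarboxylase that makes dopamine, overlapped between the groups (log2 FC 0.18, SE 0.35, adjusted p = 0.705). PCBD1, which regenerates the tetrahydrobiopterin that TH needs, was above every NAM in 11 tumors (log2 FC 1.13, SE 0.19, adjusted p = 7.58e-05, 12 of 12), and CYB561, which passes electrons into the vesicle for DBH, in 5 (log2 FC 1.10, SE 0.30, adjusted p = 0.00616, 11 of 12). Below PNMT in size were the falls of GCHFR, a feedback regulator of cofactor synthesis (log2 FC -1.64, SE 0.28, adjusted p = 0.000125, 12 of 12), and of PTS, an enzyme of that synthesis (log2 FC -0.47, SE 0.14, adjusted p = 0.0129, 11 of 12). CYB561, GCHFR and PTS were not called with the cortical score (log2 FC 1.02, -0.77 and -0.26, adjusted p from 0.14 to 0.488), nor PTS with group 1 in the fit (adjusted p = 0.0593). Among 7 genes of catecholamine transport and breakdown, 1 was higher and 2 were lower (14.3% and 28.6%, beside 22.9% and 18% of all genes), with a median of -0.43, against 0 and 1 with the score. Counts of higher and lower members were 1 and 4 by the DESeq2 Wald test or without tumor 10, 0 and 4 by the Mann-Whitney U-test, and 1 and 1 with group 1 in the fit or without NAM replicate 3 or 10 or tumor 5. The second vesicular transporter, SLC18A2, ranged from 34 to 243 CPM (median 54) in NAMs and from 1.21 to 1440.2 CPM (median 566) in group 2 (log2 FC 2.91, SE 0.81, adjusted p = 0.00665, 9 of 12). It lay above every NAM in 8 tumors and below every NAM in 3, and it did not pass by the Mann-Whitney U-test (adjusted p = 0.117) or with the cortical score (log2 FC 3.14, adjusted p = 0.0933). By mean TPM the leading transporter of the list was SLC18A1 in NAMs (448) and SLC18A2 in group 2 (406). MAOA, a mitochondrial enzyme that degrades amines, was below every NAM in 10 tumors (log2 FC -1.13, SE 0.29, adjusted p = 0.00406, 11 of 12; log2 FC -1.78 with the score), and the noradrenaline transporter SLC6A2 overlapped (log2 FC -0.17, SE 0.48, adjusted p = 0.8).

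Of 12 granins and prohormone-processing genes, 2 were higher (SCG2 and SCG3), 1 lower and 9 not called (16.7% and 8.33%, beside 22.9% and 18% of all genes), with a median log2 FC of 0.07, against 1 higher and 1 lower with the cortical score. The 2 counts became 1 and 1 by the Mann-Whitney U-test or without NAM replicate 7, 1 and 0 with group 1 in the fit, and 2 and 0 without NAM replicate 3, 4 or 5 or tumor 2 or 12. PCSK2, a prohormone convertase, ranged from 61.8 to 292 CPM (median 134) in NAMs and from 0.327 to 202 CPM (median 14.2) in group 2 (log2 FC -1.78, SE 0.66, adjusted p = 0.0351, 10 of 12), and 10 tumors lay below every NAM. It did not pass when any 1 of NAM replicates 3, 4 and 5 or tumors 2 and 12 was left out (adjusted p from 0.051 to 0.0539) or with group 1 in the fit (adjusted p = 0.0755), and the score gave a log2 FC of -3.67. PCSK1N, an inhibitor of the related convertase, was not called (log2 FC 0.35, SE 0.18, adjusted p = 0.124). Of 24 genes of vesicle docking and exocytosis, 8 were higher and 3 lower (33.3% and 12.5%, beside 22.9% and 18% of all genes), with a median of 0.25, against 1 and 1 with the cortical score. The counts were 5 and 3 without NAM replicate 7. CPLX2, a complexin that holds the fusion complex ready, was above every NAM in 12 tumors (log2 FC 1.95, SE 0.27, adjusted p = 1.2e-05, 12 of 12). SYT4 (log2 FC 1.40, SE 0.34, adjusted p = 0.00254, 11 of 12) and SYT1 (log2 FC 0.92, SE 0.26, adjusted p = 0.00661, 11 of 12), both synaptotagmins, also rose, and were not called with the score (log2 FC 1.36 and 0.70, adjusted p = 0.0938 and 0.286). SYP did not pass in that fit either (log2 FC 0.64, adjusted p = 0.236). SV2A, a vesicle glycoprotein, fell (log2 FC -1.02, SE 0.21, adjusted p = 0.00071, 12 of 12), and SNAP25 of the fusion complex had nearly the same level in both groups (log2 FC -0.10, SE 0.26, adjusted p = 0.786).

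Of 28 neuropeptides listed, 15 could be tested. With 3 higher (20%) and 4 lower (26.7%), the shares lie near the 22.9% and 18% of all genes, and the median log2 FC was -0.46. With the cortical score 1 was higher and 2 lower. Under other settings the counts were 6 and 6 of 25 without the low-count filter. PENK, the enkephalin precursor, ranged from 5628 to 24509 CPM (median 7443) in NAMs and from 152 to 63817 CPM (median 26372) in group 2 (log2 FC 1.52, SE 0.64, adjusted p = 0.0609). It was the peptide with the highest mean TPM in both groups (20140 and 56300), and 6 tumors lay above and 3 below every NAM. It passed the threshold by the DESeq2 Wald test (adjusted p = 0.0205) and when NAM replicate 3 or tumor 6 or 10 was left out (adjusted p from 0.0159 to 0.0362). GAL, or galanin, ranged from 0.201 to 6.15 CPM (median 0.9) in NAMs and from 0.364 to 413 CPM (median 27.5) in group 2 (log2 FC 5.83, SE 1.03, adjusted p = 0.00015, 11 of 12), with 8 tumors above every NAM and a log2 FC of 8.01 with the score. ADM, or adrenomedullin, rose (log2 FC 1.28, SE 0.35, adjusted p = 0.00548, 10 of 12), with no call with the cortical score (log2 FC 0.91, adjusted p = 0.236) or with group 1 in the fit (adjusted p = 0.0506). NPPC, a natriuretic peptide, rose from a low level (log2 FC 3.43, SE 0.75, adjusted p = 0.00108, 12 of 12), with a log2 FC of 4.50 without NAM replicate 3 and no call with the cortical score (log2 FC 1.98, adjusted p = 0.205). Besides CARTPT, CRH, the releasing hormone of the stress axis, was below every NAM in all 12 tumors, at 6.23 to 40.3 CPM (median 11.7) in NAMs and from 0.156 to 3.1 CPM (median 1.28) in group 2 (log2 FC -3.60, SE 0.40, adjusted p = 1.17e-06, 12 of 12). UCN, a relative of CRH, fell (log2 FC -3.83, SE 1.10, adjusted p = 0.008, 11 of 12) and was at 0 in 6 tumors. Its log2 FC was -3.16 without NAM replicate 3 and -4.99 without tumor 12, and it was not called with the cortical score (log2 FC -1.43, adjusted p = 0.71). NMB fell as well (log2 FC -1.84, SE 0.40, adjusted p = 0.00105, 12 of 12) and was not called with that score (log2 FC -1.70, adjusted p = 0.0827), and NPY was not called (log2 FC -1.13, SE 0.79, adjusted p = 0.26).

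Of 14 transcription factors of the sympathoadrenal lineage, 8 were higher and 2 lower (57.1% and 14.3%, beside 22.9% and 18% of all genes), with a median of 1.03, against 4 and 1 in the covariate fit. By the Mann-Whitney U-test 5 were higher, and with group 1 in the fit 6. Beside PHOX2A, GATA2 ranged from 43.3 to 136 CPM (median 61.9) in NAMs and from 111 to 858 CPM (median 299.7) in group 2 (log2 FC 2.29, SE 0.29, adjusted p = 4.8e-06, 12 of 12), with 11 tumors above every NAM. EPAS1, the oxygen-sensitive factor HIF2 alpha that chromaffin cells express, was above every NAM in 9 tumors (log2 FC 1.22, SE 0.23, adjusted p = 0.000242, 11 of 12). HAND2 rose (log2 FC 0.95, SE 0.27, adjusted p = 0.00837, 12 of 12), and was not called with the cortical score (log2 FC 0.60, adjusted p = 0.35). HAND1 varied far more between tumors, from 1.01 to 631 CPM (median 56.5) in group 2 against 7.11 to 31.9 CPM (median 12.1) in NAMs (log2 FC 3.18, SE 0.86, adjusted p = 0.00519, 8 of 12). It lay above every NAM in 8 tumors and below in 4, its log2 FC was 2.51 without tumor 4, and it did not pass by the Mann-Whitney U-test (adjusted p = 0.309) or with the cortical score (log2 FC 3.94, adjusted p = 0.0767). ISL1, a homeodomain factor of neurons and islets, was lower in 11 of 12 tumors than in every NAM, from 18.5 to 58.8 CPM (median 31.2) in NAMs and from 0 to 38.1 CPM (median 0.825) in group 2 (log2 FC -2.71, SE 0.89, adjusted p = 0.0182, 11 of 12). Tumor 7 was the exception, and without it the log2 FC was -3.83, and with the score -4.19. GATA3 did not pass (log2 FC -1.22, SE 0.69, adjusted p = 0.163).

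Of 28 receptors for amines, somatostatin and acetylcholine, 16 could be tested. Of these 8 were higher and 1 was lower (50% and 6.25%, beside 22.9% and 18% of all genes), with a median of 1.08, against 4 and 0 with the cortical score. Elsewhere the counts came to 8 and 2 by the Mann-Whitney U-test or without tumor 3 or 4, 9 and 2 of 24 without the low-count filter, and 8 and 2 of 17 without NAM replicate 3. ADRA1A, an alpha-1 adrenergic receptor, ranged from 0 to 0.267 CPM (median 0.0452) in NAMs and from 0 to 55.2 CPM (median 13.4) in group 2 (log2 FC 8.08, SE 0.93, adjusted p = 1.65e-06, 11 of 12). Its highest NAM held 5 counts, 11 tumors lay above every NAM and tumor 1 was at 0, and a prior count of 2 gave a log2 FC of 6.92. SSTR1, a somatostatin receptor, ranged from 0.981 to 10.1 CPM (median 3.2) in NAMs and from 2.85 to 236 CPM (median 25.9) in group 2 (log2 FC 3.37, SE 0.68, adjusted p = 0.00052, 10 of 12). Tumor 4 held 52.3% of its summed level in group 2, and without it the log2 FC was 2.43, and with the score 4.21. SSTR2, another receptor of that family, was not called (log2 FC 1.40, SE 0.77, adjusted p = 0.152). Tumor 7 held 46.2% of the summed level of SSTR2 in group 2. Its log2 FC ran from 0.63 to 1.52 over fits that each left out 1 library, with no call in any. Nicotinic subunits CHRNA5 (log2 FC 3.22, SE 0.40, adjusted p = 4.03e-06, 12 of 12) and CHRNA3 (log2 FC 1.29, SE 0.35, adjusted p = 0.00554, 10 of 12) rose, the first above every NAM in 11 tumors, and CHRNA3 did not pass with the cortical score (log2 FC 0.72, adjusted p = 0.363). The alpha-2 receptor ADRA2B fell (log2 FC -2.07, SE 0.37, adjusted p = 0.000184, 11 of 12), again with no call under that score (log2 FC -1.22, adjusted p = 0.117), and ADRA2A was not called (log2 FC 0.36, SE 0.46, adjusted p = 0.562).

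RET, the receptor kinase of glial cell line-derived neurotrophic factor and its relatives, lies on chromosome 28 from 3947232 to 3994210 and ranged from 2.01 to 27.2 CPM (median 8.88) in NAMs and from 45.9 to 369 CPM (median 141) in group 2 (log2 FC 3.90, SE 0.47, adjusted p = 2.72e-06, 12 of 12). Every tumor lay above every NAM. The co-receptors GFRA1 and GFRA3 fell, GFRA1 from 11.1 to 49.4 CPM (median 30.4) in NAMs and from 0.208 to 33.8 CPM (median 3.64) in group 2 (log2 FC -1.68, SE 0.58, adjusted p = 0.0244, 11 of 12) and GFRA3 from 4.27 to 86.5 CPM (median 28.4) in NAMs and from 0.781 to 37.1 CPM (median 5.27) in group 2 (log2 FC -1.99, SE 0.59, adjusted p = 0.0095, 11 of 12), and with the cortical score kept their log2 FC (-1.71 and -1.96) without being called (adjusted p = 0.26 and 0.211). In that fit 1 member of the family was higher and 0 lower. Only 4 of 11 listed members of the family passed the filter, so 1 higher, 2 lower (25% and 50%, beside 22.9% and 18% of all genes) and a median of -0.64 describe those 4. Without the filter 10 members could be tested, of which 5 were higher and 2 lower (median 1.41), beside 16.6% and 12.5% of all genes. With group 1 in the fit 7 could be tested, with 4 higher and 2 lower (median 2.46), beside 18.4% and 14.5%.

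Of 29 voltage-gated ion channels tested, 12 were higher and 4 lower (41.4% and 13.8%, beside 22.9% and 18% of all genes), with a median of 0.47, against 7 and 2 with the cortical score. Other settings gave 8 and 7 by the Mann-Whitney U-test. CACNA1G, a T-type calcium channel, ranged from 8.76 to 49.3 CPM (median 14.1) in NAMs and from 79.5 to 561 CPM (median 277) in group 2 (log2 FC 3.86, SE 0.37, adjusted p = 1.97e-07, 12 of 12), with every tumor above every NAM and a log2 FC of 3.16 with the score. CACNA1D, an L-type channel, was above every NAM in 11 tumors (log2 FC 2.01, SE 0.30, adjusted p = 3.12e-05, 12 of 12). The potassium channel KCNQ5 (log2 FC 3.61, SE 0.51, adjusted p = 1.65e-05, 12 of 12), the subunit KCNMB2 of the calcium-activated channel (log2 FC 2.78, SE 0.40, adjusted p = 1.84e-05, 12 of 12) and KCNH2 (log2 FC 1.53, SE 0.24, adjusted p = 5.56e-05, 11 of 12) were each above every NAM in 11. SCN7A, a sodium channel found in glia and sensory neurons, was below every NAM in all 12, at 92.2 to 297 CPM (median 142) in NAMs and from 1.33 to 76.6 CPM (median 27.7) in group 2 (log2 FC -2.19, SE 0.51, adjusted p = 0.00171, 12 of 12), but was not called with the cortical score, where the log2 FC was larger (log2 FC -2.55, adjusted p = 0.0728). CACNA1H, a T-type channel with the highest TPM of the list in NAMs, fell slightly (log2 FC -0.56, SE 0.22, adjusted p = 0.0427, 10 of 12). Its call was not kept without any 1 of NAM replicates 1, 3, 6 and 8 or tumors 4, 7 and 12 (adjusted p from 0.0503 to 0.0981), on total counts (0.0775), with group 1 in the fit (0.394) or with the score (0.548, log2 FC -0.36).

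Of 22 tested genes that predispose people to these tumors, 3 were higher and 9 lower (13.6% and 40.9%, beside 22.9% and 18% of all genes), with a median of -0.27, against 2 and 3 with the cortical score. RET and EPAS1 are described above, and MAX, a partner of MYC, rose slightly (log2 FC 0.39, SE 0.12, adjusted p = 0.00998, 11 of 12), and was not called with group 1 in the fit (adjusted p = 0.117) or with the score (log2 FC 0.34, adjusted p = 0.233). SDHA (log2 FC -0.58, SE 0.16, adjusted p = 0.00544, 11 of 12) and SDHC (log2 FC -0.75, SE 0.16, adjusted p = 0.000709, 12 of 12), subunits of succinate dehydrogenase, and FH, the fumarase (log2 FC -0.57, SE 0.14, adjusted p = 0.00294, 12 of 12), were lower in most tumors, with 8, 8 and 5 of 12 below every NAM. None of these 3 was called with the cortical score (log2 FC -0.03, -0.42 and -0.16, adjusted p from 0.241 to 0.933). SDHB did not pass (log2 FC -0.39, SE 0.21, adjusted p = 0.146), nor did VHL (log2 FC 0.27, SE 0.17, adjusted p = 0.199) or NF1 (log2 FC 0.17, SE 0.14, adjusted p = 0.338). The receptor kinase MET was below every NAM in 10 tumors (log2 FC -2.25, SE 0.43, adjusted p = 0.000367, 11 of 12), with a log2 FC of -3.40 under the score. TMEM127 fell (log2 FC -0.40, SE 0.10, adjusted p = 0.00329, 11 of 12), and was not called with the score, where the log2 FC was larger (log2 FC -0.46, adjusted p = 0.0654). Levels of these genes say nothing of variants in them, which were not analysed here.

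Of 21 genes of the citric acid cycle, 0 were higher and 14 lower (0% and 66.7%, beside 22.9% and 18% of all genes), with 7 not called and a median log2 FC of -0.48, against 0 and 3 with the cortical score. PC, the pyruvate carboxylase that refills the cycle, ranged from 115 to 373 CPM (median 242) in NAMs and from 20.3 to 93 CPM (median 42.2) in group 2 (log2 FC -2.21, SE 0.26, adjusted p = 1.59e-06, 12 of 12). DLAT, of the pyruvate dehydrogenase complex, ranged from 62.3 to 72.7 CPM (median 68) in NAMs and from 31.4 to 59.5 CPM (median 42.1) in group 2 (log2 FC -0.68, SE 0.10, adjusted p = 3.32e-05, 12 of 12). For both genes all 12 tumors lay below every NAM. SUCLG1, a subunit of succinyl-CoA ligase, fell (log2 FC -1.03, SE 0.16, adjusted p = 5.05e-05, 12 of 12), with 10 tumors below every NAM. Summed over the 21 genes, NAMs held 2825 to 4835 CPM and group 2 held 2252 to 3178 CPM. Of 45 genes coding for nuclear subunits of the respiratory chain, 4 were higher and 15 lower (8.89% and 33.3%, beside 22.9% and 18% of all genes), with a median of -0.17, against 1 and 0 with the score. Counts of higher and lower members were 1 and 11 with group 1 in the fit, 2 and 22 without NAM replicate 4, and 2 and 19 without tumor 9. UQCRC1 of complex III (log2 FC -0.91, SE 0.15, adjusted p = 5.66e-05, 12 of 12) and NDUFS8 of complex I (log2 FC -1.08, SE 0.20, adjusted p = 0.000246, 12 of 12) fell in 11 and 10 tumors to below every NAM, and NDUFA13 rose (log2 FC 0.45, SE 0.12, adjusted p = 0.00581, 10 of 12). These 3 were not called with the score (log2 FC -0.54, -0.57 and 0.56, adjusted p from 0.0584 to 0.176). ATP5F1B, of the ATP synthase, fell slightly (log2 FC -0.33, SE 0.12, adjusted p = 0.0326, 11 of 12), with no call without any 1 of NAM replicates 1, 6 and 8 or tumors 3 and 5 (adjusted p from 0.0503 to 0.0743), on total counts (0.0545) or with group 1 in the fit (0.065), and with the score its sign turned (log2 FC 0.01, adjusted p = 0.97). The share of counts on mitochondrial genes averaged 9.53% in the 10 NAMs with an SD of 2.80%, and 9.38% in the 12 tumors with an SD of 3.82%.

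Of 25 genes induced by low oxygen, 8 (32%) were higher and 3 (12%) lower, beside 22.9% and 18% of all genes (median 0.25), and 2 and 1 with the cortical score. The 2 counts became 8 and 5 by the DESeq2 Wald test, and 6 and 5 by the Mann-Whitney U-test or without tumor 11. CA9, a carbonic anhydrase, rose from a low level, at 2.2 to 3.62 CPM (median 2.63) in NAMs and from 2.57 to 13.2 CPM (median 6.49) in group 2 (log2 FC 1.34, SE 0.22, adjusted p = 9.1e-05, 11 of 12). ANKRD37 rose to a like extent (log2 FC 1.26, SE 0.25, adjusted p = 0.000424, 11 of 12), with no call under the score (log2 FC 1.09, adjusted p = 0.053). VEGFA, the angiogenic factor, overlapped (log2 FC 0.27, SE 0.30, adjusted p = 0.483). PFKFB4, a regulator of glycolysis, fell below every NAM in all 12 tumors (log2 FC -1.69, SE 0.18, adjusted p = 7.67e-07, 12 of 12). HIF1A was not called (log2 FC -0.23, SE 0.24, adjusted p = 0.465). Tumor 11 had the highest level of HIF1A, 694 CPM against a group median of 164 CPM, and without it HIF1A fell (log2 FC -0.55, adjusted p = 0.00151). The DESeq2 Wald test, which by default replaces outlying counts in groups of this size, called it (log2 FC -0.54, adjusted p = 0.000112). The Mann-Whitney U-test also called HIF1A (adjusted p = 0.0157).

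Of 51 mitosis genes tested, 35 were higher and 1 was lower (68.6% and 1.96%, beside 22.9% and 18% of all genes), with a median log2 FC of 1.42 and none past 3. The number lower was 0 on total counts, by the Mann-Whitney U-test, with group 1 in the fit or without NAM replicate 2, 5, 6 or 10 or tumor 3, 5, 7 or 12, and 2 without tumor 1. With the cortical score as a covariate 12 were higher and 0 lower, beside 5.33% and 3.64% of all genes in that fit. TOP2A, which untangles DNA, ranged from 0.882 to 26.3 CPM (median 5.41) in NAMs and from 8.54 to 64.9 CPM (median 22.9) in group 2 (log2 FC 2.01, SE 0.45, adjusted p = 0.0013, 12 of 12). MKI67, the proliferation marker Ki67, ranged from 1 to 15.8 CPM (median 4.19) in NAMs and from 10.4 to 43.2 CPM (median 12.8) in group 2 (log2 FC 1.90, SE 0.41, adjusted p = 0.000952, 12 of 12). In both the groups overlapped, with 4 and 5 tumors above every NAM. KIF4A, a kinesin of the spindle, separated better, with 11 tumors above (log2 FC 1.52, SE 0.27, adjusted p = 0.000167, 12 of 12), and CCNA2 (log2 FC 2.06, SE 0.43, adjusted p = 0.000738, 12 of 12) and ASPM (log2 FC 1.81, SE 0.31, adjusted p = 0.000124, 12 of 12) lay above in 9 and 9. TOP2A, MKI67 and KIF4A were not called with the score (log2 FC 1.75, 1.68 and 1.10, adjusted p from 0.0538 to 0.0775). SMC4, of the condensin complex, was the gene that fell (log2 FC -0.44, SE 0.17, adjusted p = 0.0468, 10 of 12). It was not called in 9 of 22 fits that each left out 1 library, NAM replicates 1, 2, 5, 6 and 10 and tumors 3, 5, 7 and 12 (adjusted p from 0.0621 to 0.0777), nor by the Mann-Whitney U-test (0.0516), on total counts (0.0511), with group 1 (0.122) or with the score (0.973, log2 FC -0.02). Of 39 DNA replication genes, 12 were higher and 6 lower (30.8% and 15.4%, beside 22.9% and 18% of all genes), with a median of 0.29, against 2 and 0 with the score. The counts were 6 and 3 with group 1 in the fit, and 12 and 3 without NAM replicate 8. MCM6, of the replicative helicase, was above every NAM in 11 tumors (log2 FC 1.70, SE 0.25, adjusted p = 2.75e-05, 12 of 12) and GINS4 in 10 (log2 FC 1.02, SE 0.19, adjusted p = 0.000314, 12 of 12). CDC6, which loads the helicase, rose (log2 FC 2.01, SE 0.42, adjusted p = 0.000665, 12 of 12), with no call under the score (log2 FC 1.68, adjusted p = 0.0679), and PCNA was not called (log2 FC 0.20, SE 0.16, adjusted p = 0.306).

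Of 19 immediate early genes tested, 6 were higher and 1 was lower (31.6% and 5.26%, beside 22.9% and 18% of all genes), with a median of 1.03, against 1 and 0 with the cortical score. Under other settings the counts were 8 and 3 by the DESeq2 Wald test, 8 and 0 without NAM replicate 3, 7 and 0 without NAM replicate 6 or 8, 6 and 2 without NAM replicate 7 or 10 or tumor 4, and 7 and 2 without tumor 8. FOS ranged from 4.79 to 63.9 CPM (median 12.3) in NAMs and from 26.9 to 513 CPM (median 297) in group 2 (log2 FC 3.75, SE 0.56, adjusted p = 2.76e-05, 12 of 12), and 9 tumors lay above every NAM. MYC (log2 FC 1.37, SE 0.28, adjusted p = 0.000672, 12 of 12) and ZFP36, which destabilizes messenger RNA (log2 FC 2.79, SE 0.55, adjusted p = 0.000403, 11 of 12), were each above every NAM in 8. Neither was called with the score (log2 FC 1.28 and 2.16, adjusted p = 0.0654 and 0.0644). EGR1 (log2 FC 1.18, SE 0.58, adjusted p = 0.106) and NR4A1 (log2 FC -1.38, SE 0.60, adjusted p = 0.0689) were not called by edgeR. EGR1 passed without NAM replicate 3 (log2 FC 1.62, adjusted p = 0.028). NR4A1 passed, as lower, by the DESeq2 Wald test (0.0298), by the Mann-Whitney U-test (0.0441) and without NAM replicate 7 or 10 or tumor 4 (adjusted p from 0.0388 to 0.0452). The time from loss of blood supply to freezing was not analysed here.

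Of 38 Wnt genes tested, 10 (26.3%) were higher and 12 (31.6%) lower, beside 22.9% and 18% of all genes (median -0.09), against 2 and 0 with the cortical score. SFRP2, a secreted protein that can oppose or enhance Wnt signalling, ranged from 0 to 1.05 CPM (median 0.358) in NAMs and from 0.421 to 821 CPM (median 7.2) in group 2 (log2 FC 7.53, SE 1.43, adjusted p = 0.000315, 12 of 12). Tumor 11 held 79.4% of its summed level in group 2. Without that tumor the log2 FC was 5.40, the DESeq2 Wald test gave 5.31, and with the score it was not called (log2 FC 2.88, adjusted p = 0.207). WNT3, a ligand, was above every NAM in 11 tumors (log2 FC 3.74, SE 0.54, adjusted p = 1.9e-05, 12 of 12), as was the receptor FZD7 (log2 FC 3.00, SE 0.43, adjusted p = 1.75e-05, 12 of 12). NKD1, a feedback inhibitor, rose (log2 FC 3.79, SE 0.67, adjusted p = 0.000151, 10 of 12), with a log2 FC of 3.16 without tumor 7 and no call with the score (log2 FC 1.66, adjusted p = 0.155). AXIN2, a common target of the pathway, overlapped (log2 FC 0.17, SE 0.34, adjusted p = 0.716). FRZB, a secreted antagonist (log2 FC -2.35, SE 0.46, adjusted p = 0.000385, 12 of 12), and the co-receptor LRP5 (log2 FC -1.32, SE 0.23, adjusted p = 0.000152, 12 of 12) fell, and were not called with the score (log2 FC -0.73 and -0.59, adjusted p = 0.391 and 0.202).

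Receptor tyrosine kinases other than RET were lower or not called, with ALK as the exception. Of 30 kinases and ligands tested, 1 was higher and 11 lower (3.33% and 36.7%, beside 22.9% and 18% of all genes), with a median of -0.70, against 0 and 2 with the cortical score. Elsewhere the counts came to 0 and 12 by the Mann-Whitney U-test, 2 and 11 of 36 without the low-count filter, 2 and 9 of 34 with group 1 in the fit, 2 and 11 without NAM replicate 3 or tumor 12, and 0 and 10 without tumor 8. FGFR2 (log2 FC -2.66, SE 0.51, adjusted p = 0.000317, 12 of 12), the ligand PDGFD (log2 FC -2.003, SE 0.33, adjusted p = 8.87e-05, 12 of 12) and VEGFC (log2 FC -1.41, SE 0.26, adjusted p = 0.000244, 12 of 12) fell in 10, 10 and 9 tumors to below every NAM. With the score FGFR2, PDGFD and VEGFC were not called (log2 FC -0.80, -1.39 and -1.10, adjusted p from 0.0781 to 0.241). ALK was the member that rose, from 0.1 to 11.1 CPM (median 1.93) in NAMs and from 0.112 to 91.1 CPM (median 7.38) in group 2 (log2 FC 2.82, SE 0.93, adjusted p = 0.0185, 8 of 12). Just 4 tumors lay above every NAM, and the call was not kept without tumor 8 (adjusted p = 0.0516), by the Mann-Whitney U-test (adjusted p = 0.208) or with the score (log2 FC 3.02, adjusted p = 0.159).

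Of 29 fibroblast and matrix genes tested, 20 were higher and 2 lower (69% and 6.9%, beside 22.9% and 18% of all genes), with a median log2 FC of 2.13. Other settings gave 10 and 3 by the Mann-Whitney U-test. Summed over the list, NAMs held 1701 to 2916 CPM (median 2309) and group 2 held 1439 to 44670 CPM (median 2599), the last value in tumor 11. SPARC was the most abundant of them by TPM in both groups (467 and 571) and was not called (log2 FC 0.26, SE 0.37, adjusted p = 0.599). COL1A1, a chain of type I collagen, ranged from 30.3 to 122 CPM (median 52.6) in NAMs and from 56.7 to 7630 CPM (median 272) in group 2 (log2 FC 4.19, SE 0.82, adjusted p = 0.000396, 12 of 12), with 59.2% of the group's summed level in tumor 11 and 8 tumors above every NAM. Without tumor 11, 16 genes of the list were higher and 3 lower (median 0.88). The log2 FC was then 3.02 for COL1A1, 2.42 for COL3A1 against 3.56 with it, and 3.39 for FAP, a surface protease of activated fibroblasts, against 4.93. The DESeq2 Wald test, with its replacement of outlying counts, gave 2.92, 2.32 and 3.29. LRRC15, a surface protein of the same cells, was above every NAM in 10 tumors, at 0.147 to 2.98 CPM (median 0.533) in NAMs and from 0.252 to 315 CPM (median 20.5) in group 2 (log2 FC 6.45, SE 1.11, adjusted p = 0.000125, 11 of 12). TIMP1, an inhibitor of matrix proteases, fell (log2 FC -1.14, SE 0.34, adjusted p = 0.0099, 11 of 12). With the cortical score 2 of the 29 were higher and 1 lower (median -0.04), and COL1A1, COL3A1 and FAP were not called at smaller log2 FCs (1.18, 0.63 and 1.43, adjusted p from 0.373 to 0.696), nor TIMP1 at a larger one (log2 FC -1.50, adjusted p = 0.0883). The part of fibroblast content in the change of POSTN was not tested.

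Of 26 genes of endothelium and angiogenesis, 2 were higher and 11 lower (7.69% and 42.3%, beside 22.9% and 18% of all genes), with a median of -0.63, against 1 and 3 with the cortical score. Counts of higher and lower members were 1 and 10 by the Mann-Whitney U-test or without NAM replicate 7, 1 and 8 with group 1 in the fit or without NAM replicate 9, 1 and 11 without NAM replicate 1 or 8 or tumor 1, 6 or 8, and 1 and 13 without NAM replicate 2. The marker PECAM1 had nearly the same level in both groups (log2 FC -0.06, SE 0.24, adjusted p = 0.875). ESM1, a secreted proteoglycan of activated endothelium, ranged from 0.337 to 5.96 CPM (median 1.1) in NAMs and from 8.24 to 82.3 CPM (median 21.1) in group 2 (log2 FC 3.69, SE 0.53, adjusted p = 1.84e-05, 12 of 12), with every tumor above every NAM. CCBE1, needed for lymphatic growth, was below every NAM in all 12, at 9.96 to 36.5 CPM (median 24.5) in NAMs and from 0.701 to 9.81 CPM (median 1.95) in group 2 (log2 FC -3.24, SE 0.40, adjusted p = 4.03e-06, 12 of 12), with a log2 FC of -1.91 under the score. KDR, a receptor of VEGFA (log2 FC -1.29, SE 0.29, adjusted p = 0.00124, 11 of 12), and VWF (log2 FC -0.88, SE 0.22, adjusted p = 0.00265, 12 of 12) fell, KDR with no call under the score (log2 FC -1.21, adjusted p = 0.117). Of 12 markers of Schwann and sustentacular cells, 0 were higher and 3 lower (0% and 25%, beside 22.9% and 18% of all genes), with a median of -1.07, and 0 were called with the score. The 2 counts became 0 and 5 by the Mann-Whitney U-test, 0 and 1 with group 1 in the fit or without NAM replicate 10 or tumor 4, and 0 and 6 without tumor 5. NGFR was below every NAM in 8 tumors (log2 FC -1.57, SE 0.37, adjusted p = 0.00203, 11 of 12), but was not called with the score (log2 FC -1.71, adjusted p = 0.107). CDH19, a cadherin of glia, fell (log2 FC -1.57, SE 0.58, adjusted p = 0.0337, 11 of 12), with no call without any 1 of NAM replicates 3 and 10 or tumor 4 (adjusted p from 0.0512 to 0.0549), with group 1 in the fit (0.0877) or with the score (0.371, log2 FC -1.51). SOX10, the factor that marks these cells, did not pass (log2 FC -1.15, SE 0.57, adjusted p = 0.111). Without tumor 5, which had the most of it, it did (adjusted p = 0.0344).

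Of 16 markers of macrophages and neutrophils, 3 were higher and 1 lower (18.8% and 6.25%, both under the 22.9% and 18% of all genes), with a median of 0.44. With the cortical score 1 was higher and 2 lower. The counts were 3 and 2 by the Mann-Whitney U-test or without tumor 11, and 5 and 1 of 18 without the low-count filter or with group 1 in the fit. Their summed level ranged from 799 to 1736 CPM (median 1137) in NAMs and from 581 to 5530 CPM (median 1349.6) in group 2, the highest in tumor 11. S100A8, a calcium-binding protein of neutrophils, led the list by TPM in group 2, at 43 to 115 CPM (median 57.6) in NAMs and from 62.3 to 890 CPM (median 567) in group 2 (log2 FC 2.89, SE 0.39, adjusted p = 1.01e-05, 12 of 12), with 11 tumors above every NAM and the highest value in tumor 7. CSF3R, a growth factor receptor of neutrophils, rose (log2 FC 4.49, SE 1.18, adjusted p = 0.00419, 11 of 12), with 82.6% of the group's level in tumor 11. Its log2 FC was 2.09 without that tumor and 5.14 without NAM replicate 10, 2.46 by the DESeq2 Wald test, and it was not called with the score (log2 FC 0.60, adjusted p = 0.79). Macrophage genes CD68 (log2 FC 0.72, SE 0.45, adjusted p = 0.208) and C1QC (log2 FC -0.14, SE 0.37, adjusted p = 0.797) were not called, and MRC1 fell (log2 FC -1.27, SE 0.27, adjusted p = 0.000738, 12 of 12). Tumor 11 held 42.9% of the level of CD68 in group 2. The log2 FC of CD68 ran from 0.04 to 0.83 over fits that each left out 1 library. Of 11 lymphocyte markers tested of 23 listed, 7 were higher and 1 lower (63.6% and 9.09%, beside 22.9% and 18% of all genes), with a median of 1.60, and 0 and 0 with the score (median -0.13). Under other settings the counts were 7 and 2 with DESeq2 size factors or without NAM replicate 7 or tumor 6, 7 or 10, 6 and 2 by the DESeq2 Wald test or without NAM replicate 5 or tumor 11, 11 and 1 of 21 without the low-count filter, 7 and 2 of 10 with the filter at 1 CPM, and 7 and 2 of 12 without NAM replicate 4. Summed, they ranged from 347 to 699 CPM (median 528) in NAMs and from 245 to 2161 CPM (median 458) in group 2. The median tumor was thus below the median NAM, with the highest sum again in tumor 11. By mean TPM the list was led by CD79A in NAMs and by JCHAIN in group 2, but tumor 11 held 67.1% of the level of JCHAIN, and the group 2 median was 62 CPM for JCHAIN and 280.1 CPM for CD79A. CD3E, a subunit of the T-cell receptor complex, ranged from 0.41 to 1.85 CPM (median 1.04) in NAMs and from 0.167 to 19.5 CPM (median 1.54) in group 2 (log2 FC 2.27, SE 0.69, adjusted p = 0.0112, 7 of 12). It was not called by the Mann-Whitney U-test (adjusted p = 0.5) and with the score its sign turned (log2 FC -0.16, adjusted p = 0.944). JCHAIN, of secreted antibodies, had a log2 FC of 2.32 (adjusted p = 0.00548), 0.85 without tumor 11 and 0.79 by the DESeq2 Wald test, and was not called with the score (log2 FC 0.08, adjusted p = 0.96). CD2 (log2 FC 2.51, SE 0.60, adjusted p = 0.00222, 11 of 12) and ZAP70 of T-cell signalling (log2 FC 1.60, SE 0.40, adjusted p = 0.00317, 11 of 12) rose and CD5 fell (log2 FC -2.10, SE 0.45, adjusted p = 0.000851, 12 of 12), and none of them was called with the score (log2 FC 0.68, 1.03 and -0.61, adjusted p from 0.265 to 0.679). Of 11 antigen presentation genes, 0 were higher and 0 lower by edgeR (0% and 0%, beside 22.9% and 18% of all genes), with a median of 0.29. The counts were also 0 and 0 by the DESeq2 Wald test (beside 24.1% and 20.4%), by the Mann-Whitney U-test (beside 18.7% and 19.7%) and at an unadjusted p below 0.05. Leaving out tumor 10 gave 1 higher, and the cortical score 0 and 0. CD74 (log2 FC 0.39, SE 0.39, adjusted p = 0.452) and B2M (log2 FC 0.26, SE 0.31, adjusted p = 0.511) were among them.

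Of 15 erythroid genes listed 3 passed the filter, and ALAS2, the heme enzyme of red cell precursors, was the 1 that rose (log2 FC 5.38, SE 0.93, adjusted p = 0.000128, 12 of 12). With 0 lower, the shares were 33.3% and 0%, beside 22.9% and 18% of all genes (median 0.20), against 0 and 0 with the cortical score. Elsewhere the counts came to 8 and 0 of 11 without the low-count filter (beside 16.6% and 12.5% of all genes) and 0 and 0 of 2 with the filter at 1 CPM (beside 19.8% and 20.4%). They were 4 and 0 of 6 with group 1 in the fit (beside 18.4% and 14.5%). Without NAM replicate 8 or 9 they were 2 and 0 of 4 (beside 20.4% and 16.2%, and 20.8% and 16.7%). Tumor 11 held 60.8% of the level of ALAS2, and its log2 FC was 4.16 without that tumor, 4.11 by the DESeq2 Wald test and 4.77 with a prior count of 2. It was not called with the cortical score (log2 FC 3.03, adjusted p = 0.0681). GYPC, a glycophorin, was not called (log2 FC 0.20, SE 0.29, adjusted p = 0.6). All 7 hepatocyte markers tested of 17 listed were called, 2 higher and 5 lower (28.6% and 71.4%, beside 22.9% and 18% of all genes), with a median of -2.62, and 0 and 1 with the score. Other settings gave 4 and 5 of 14 without the low-count filter, 2 and 3 of 5 with the filter at 1 CPM, and 2 and 3 of 6 without tumor 11. FGG, a fibrinogen chain, ranged from 0.442 to 512 CPM (median 23.2) in NAMs and from 0.14 to 60.3 CPM (median 2.92) in group 2 (log2 FC -3.67, SE 1.07, adjusted p = 0.00877, 11 of 12). Its log2 FC was -3.03 without NAM replicate 8 and -4.62 without tumor 3, and it was not called by the Mann-Whitney U-test (adjusted p = 0.0904) or with the score (log2 FC -4.59, adjusted p = 0.148). SERPINA1, or alpha-1 antitrypsin, rose (log2 FC 3.17, SE 0.82, adjusted p = 0.00402, 11 of 12), by a log2 FC of 1.68 without tumor 11 and 1.60 by the DESeq2 Wald test, and was not called with the score (log2 FC 0.29, adjusted p = 0.872). APOA1, a lipoprotein of plasma, fell (log2 FC -0.98, SE 0.37, adjusted p = 0.0399, 10 of 12), with no call without any 1 of NAM replicates 1, 5, 6 and 8 or tumors 4, 5, 7, 11 and 12 (adjusted p from 0.0525 to 0.0995), on total counts (0.068), with group 1 in the fit (0.103) or with the score (0.977, log2 FC -0.03). Of 4 kidney genes tested of 10 listed, 1 was higher and 1 lower (25% and 25%, beside 22.9% and 18% of all genes), with a median of -0.37, against 1 and 0 with the score. Counts of higher and lower members were 1 and 0 of 3 with the filter at 1 CPM, and 1 and 2 without tumor 10. SLC22A6, an anion transporter, fell from a low level (log2 FC -3.98, SE 0.64, adjusted p = 5.85e-05, 12 of 12), at 0 in 5 tumors and not called with the score (log2 FC -2.07, adjusted p = 0.255).

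Of 22 genes tested for cholesterol synthesis and uptake, 2 of them under the name MSMO1, 3 were higher and 7 lower (13.6% and 31.8%, beside 22.9% and 18% of all genes), with a median of -0.06, against 2 and 0 with the cortical score. SQLE, an enzyme of synthesis, rose (log2 FC 1.49, SE 0.38, adjusted p = 0.00314, 11 of 12), with no call under the score (log2 FC 1.35, adjusted p = 0.0943). STARD4, which moves sterols between membranes, rose (log2 FC 1.20, SE 0.25, adjusted p = 0.000758, 10 of 12), with no call under the score (log2 FC 0.47, adjusted p = 0.371). Of 15 glucocorticoid receptors and responsive genes, 1 was higher and 6 lower (6.67% and 40%, beside 22.9% and 18% of all genes), with a median of -0.29, against 0 and 2 with the score. The 2 counts became 2 and 6 by the DESeq2 Wald test or without tumor 2, and 2 and 5 without NAM replicate 3. The receptor NR3C1 was not called (log2 FC -0.29, SE 0.18, adjusted p = 0.212), and the mineralocorticoid receptor NR3C2 rose (log2 FC 1.07, SE 0.19, adjusted p = 0.000161, 12 of 12), with no call under the score (log2 FC 0.58, adjusted p = 0.155). The responsive genes SGK1 (log2 FC -2.04, SE 0.36, adjusted p = 0.000139, 12 of 12) and TSC22D3 (log2 FC -1.52, SE 0.27, adjusted p = 0.000195, 12 of 12) fell, in 8 and 11 tumors to below every NAM. HSD11B2, which inactivates cortisol, ranged from 641 to 2028 CPM (median 843) in NAMs and from 6.13 to 1073 CPM (median 128) in group 2 (log2 FC -2.33, SE 0.64, adjusted p = 0.00565, 11 of 12), with the highest tumor being tumor 10 and the lowest tumor 7, as for several cortex markers. With the score its sign turned (log2 FC 0.15, adjusted p = 0.831).

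**Figure D4:**
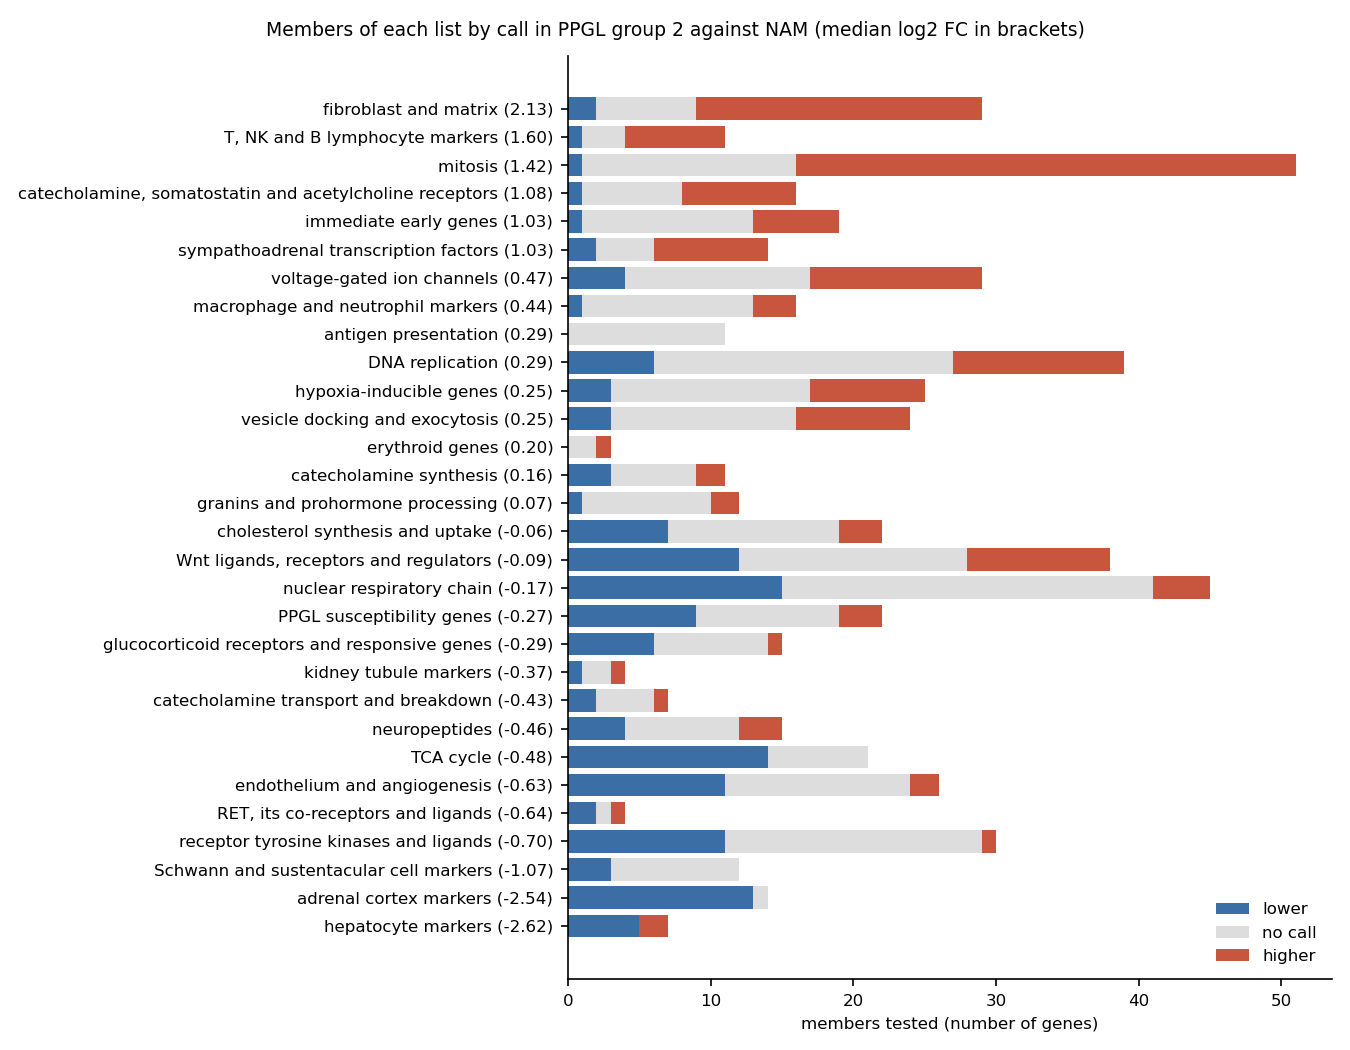
Number of members of each of 30 gene lists that were lower (blue), not called (grey) or higher (orange) in PPGL group 2 (n = 12) against NAM (n = 10) by edgeR, ordered by the median log2 FC in brackets. Fibroblast and matrix genes and mitosis genes hold 20 and 35 higher members, and cortex markers and the TCA cycle 13 and 14 lower ones.

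These results rest on 12 tumors and 10 normal medullas in bulk tissue. The covariate fit ended the call of a large part of the named genes, and cortical content, clinical origin and preservation were not separated from tumor tissue by the design. Some values lean on 1 tumor or 1 NAM, as given beside them. Group 1 was not tested against group 2, and the split of the tumors came from these data. Protein levels, variants and survival were not analysed here. Genes of the same list are not independent, and no list was tested as a set.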

How the data were processed

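Reads were checked with FastQC, aligned with STAR to the CanFam 3.1 dog genome and assessed with Picard by the authors, who deposited the integer count per gene over exons used here. The deposited counts carry the name of featureCounts, while HTSeq is listed among the programs of the upstream processing. The methods of the published paper name no counting program, and which of the programs made the counts was not settled here. The table lists 30951 genes, of which 14428 passed the low-count filter of edgeR (minimum count 10, minimum total 15) in the 22 samples.

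Everything after the counts was computed here, with edgeR 4.0.16 and DESeq2 1.42.0 in R 4.3.3 and SciPy 1.17.1 and matplotlib 3.10.9 in Python 3.11.15. TMM factors were taken over the 22 samples, and a quasi-likelihood F test compared group 2 with NAM. SE is the absolute log2 FC over the square root of F. Named genes are those with the largest log2 FC among genes whose groups do not overlap, called genes with the largest change in mean CPM, those where group 2 departs further from NAM than group 1, and members of 30 gene lists. Some genes that this rule names are not reported here. Members and lists were chosen with earlier results of these data known. Alternatives were DESeq2 size factors, total counts, the DESeq2 Wald test, the Mann-Whitney U-test, other filters, a larger prior count, sample number as a replicate block, a cortical score as a covariate, all 29 samples in 3 groups, and leaving out each sample in turn. On simulated counts with known changes, 96.0% of 99 8-fold and 56.6% of 99 2-fold changes were called, with 3 false calls.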

Additional observations from a re-analysis of the deposited data

Results flagged for a closer look

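Among 197 sets of values examined for a sample lying far from the others, 9 held such a sample. About 1 in 20 would do so by chance. The numbers below are the gap to the nearest sample as a share of the whole range, on log2 CPM.

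In NAMs, the lowest sample stood apart for IMPG1 (0.628), CCNA2 (0.494), KDR (0.471), MRC1 (0.595), JCHAIN (0.480) and GYPC (0.513), and the highest for NPPC (0.522) and CA9 (0.478). In PPGL group 1, the highest tumor stood apart for CAMKV (0.570). The cause was not tested, and all samples were kept.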

How the results depend on the processing

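Counts of calls without a fold limit were most affected by the cortical score as a covariate, which left 769 genes higher and 525 lower. It also left the fewest list members called, 49 higher and 27 lower. Past a log2 FC of 3 or -3 it left 138 higher and 62 lower, and these counts moved further without the low-count filter and with sample number as a block. The score differs between the groups, so this fit also removes group differences, and the cause was not tested. The sign turned for ATP5F1B (log2 FC 0.01, adjusted p = 0.97), CD3E (-0.16, 0.944) and HSD11B2 (0.15, 0.831). Of 145 called genes named in the text and open to this fit, 72 kept the call.

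Without the low-count filter 834 genes were higher and 217 lower past a log2 FC of 3 or -3, a filter at 1 CPM left 149 higher, and all 29 samples in 3 groups gave 344 higher. DESeq2 size factors and the DESeq2 Wald test kept the call of each of the 153 called genes named in the text. A larger prior count changes the log2 FC but not its p, so it could not end a call.

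With sample number as a replicate block, 120 genes were higher and 160 lower past these limits, and 143 of 153 named genes kept the call. Numbers 11 and 12 occur only among the tumors, so these 2 tumors add nothing to the group difference in this fit. The numbers do not pair the samples: over 10 pairs of equal number, correlations ran from -0.24 to 0.26, 3 were over 0.1, and 2 samples had their best match in their own number. How far the loss of tumors 11 and 12 moved these counts was not tested.

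Leaving out 1 sample at a time gave 2598 to 3385 higher and 2348 to 2885 lower genes. Past the limits, 177 to 251 were higher and 70 (without NAM replicate 8) to 120 (without tumor 10) lower. Of 153 called genes, 142 kept the call in all 22 such fits and 11 lost it in at least 1.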
